A study of Mus musculus with 6 samples.

Results

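Open chromatin in mouse embryonic fibroblasts was recorded as 323483 intervals, and the 2009 described here were chosen by their width and position alone. They were selected on a width of 1000 to 1999 bp, on lying on chromosomes 1 to 19, and on a midpoint more than 100 kb from the body of every protein-coding gene in GRCm38. Chromosomes 1 to 19 held 314915 intervals, of which 25827 had that width. Another 43385 intervals lay as far from genes and were under 1000 bp wide, and 25 were 2000 bp or wider. Width and distance from genes are therefore the choice itself and are given as a description, with no test.

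The fibroblasts carried a TetO-Myf6 allele and the M2-rtTA transactivator, each in heterozygous form, so that doxycycline switches on Myf6, a muscle determination factor of the basic helix-loop-helix family. All 6 ATAC-seq libraries came from cells cultured for 24 h in a medium for induced myogenic progenitors (iMPC medium) with bFGF at 10 ng/mL. The medium group (2 libraries) had no addition. The Myf6 group (2 libraries) had doxycycline at 2 µg/mL, and the Myf6+F/R/C group (2 libraries) had the same doxycycline with 5 µM forskolin (F), 5 µM RepSox (R) and 3 µM CHIR99021 (C). Forskolin raises cAMP, RepSox inhibits a TGF-beta receptor kinase and CHIR99021 inhibits GSK3, which raises beta-catenin. Whether both libraries in a group stem from separate cultures is not stated, and the untreated cells carried both alleles too. The interval table pools all libraries and names none, so levels by group, depth per library and the markers of the labelled cell type were not analysed here, and replicate error is not given for any value.

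Long stretches of the mammalian genome hold no protein-coding gene and are known as gene deserts. Such stretches commonly flank genes of developmental regulators, and the distal enhancers in them can act on promoters over long distances through looping of the chromatin. Many of the genes that do lie there encode long noncoding RNAs (lncRNAs) or are hosts of microRNAs. An ATAC-seq interval marks DNA that the transposase could reach, which includes enhancers, promoters and sites of insulator proteins, and by itself it does not tell these apart.

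The members that hold the start of a lncRNA gene are the ones for which sequence was at hand, and 7 start windows, chosen after their values were seen, are shown because they run from high to low CpG content. Each is the 300 bases from 250 before to 50 after a RefSeq start (GRCm38.p6), lies wholly inside a member, and is written 5′ to 3′ on the gene's strand with every CG dinucleotide in capitals. Lncpint is a lncRNA induced by p53, Mir99ahg and Mir100hg are hosts of the microRNA clusters with Mir99a and Mir100, and Morrbid is a lncRNA next to the pro-apoptotic gene Bcl2l11. The windows of 2600014E21Rik and Gm13652 come from a single member and face opposite strands. For Mir100hg the window belongs to an internal start.
5730522E02Rik, chr11:26210527-26210826, minus strand: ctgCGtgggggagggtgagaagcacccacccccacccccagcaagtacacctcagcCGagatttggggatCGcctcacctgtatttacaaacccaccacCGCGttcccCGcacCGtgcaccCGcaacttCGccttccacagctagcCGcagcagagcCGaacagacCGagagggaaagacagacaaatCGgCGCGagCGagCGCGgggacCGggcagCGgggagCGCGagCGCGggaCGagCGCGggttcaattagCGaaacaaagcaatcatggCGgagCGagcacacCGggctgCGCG
2600014E21Rik, chr2:75137405-75137704, plus strand: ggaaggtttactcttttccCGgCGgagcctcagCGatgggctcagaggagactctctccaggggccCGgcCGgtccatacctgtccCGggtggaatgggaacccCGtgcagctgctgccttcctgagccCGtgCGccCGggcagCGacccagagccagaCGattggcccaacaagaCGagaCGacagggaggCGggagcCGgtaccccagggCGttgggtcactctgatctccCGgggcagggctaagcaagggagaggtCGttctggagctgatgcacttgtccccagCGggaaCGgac
Gm13652, chr2:75137926-75138225, minus strand: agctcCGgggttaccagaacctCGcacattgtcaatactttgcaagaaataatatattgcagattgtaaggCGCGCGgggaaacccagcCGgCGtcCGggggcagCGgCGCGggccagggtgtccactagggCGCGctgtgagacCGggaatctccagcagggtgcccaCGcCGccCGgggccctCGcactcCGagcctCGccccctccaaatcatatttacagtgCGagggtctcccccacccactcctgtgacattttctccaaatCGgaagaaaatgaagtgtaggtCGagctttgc
Lncpint, chr6:31218425-31218724, minus strand: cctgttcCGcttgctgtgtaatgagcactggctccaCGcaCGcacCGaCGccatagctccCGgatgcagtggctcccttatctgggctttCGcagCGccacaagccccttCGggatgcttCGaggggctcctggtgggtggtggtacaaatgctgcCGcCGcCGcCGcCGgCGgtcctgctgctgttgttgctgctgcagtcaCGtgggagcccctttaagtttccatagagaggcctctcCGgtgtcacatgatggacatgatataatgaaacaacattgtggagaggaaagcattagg
Mir99ahg, chr16:77329078-77329377, plus strand: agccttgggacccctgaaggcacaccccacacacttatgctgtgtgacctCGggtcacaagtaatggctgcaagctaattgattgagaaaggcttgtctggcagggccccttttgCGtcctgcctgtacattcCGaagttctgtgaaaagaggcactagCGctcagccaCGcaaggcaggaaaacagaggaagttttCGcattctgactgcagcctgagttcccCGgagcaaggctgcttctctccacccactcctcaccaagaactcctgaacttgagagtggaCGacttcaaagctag
Morrbid, chr2:128429302-128429601, minus strand: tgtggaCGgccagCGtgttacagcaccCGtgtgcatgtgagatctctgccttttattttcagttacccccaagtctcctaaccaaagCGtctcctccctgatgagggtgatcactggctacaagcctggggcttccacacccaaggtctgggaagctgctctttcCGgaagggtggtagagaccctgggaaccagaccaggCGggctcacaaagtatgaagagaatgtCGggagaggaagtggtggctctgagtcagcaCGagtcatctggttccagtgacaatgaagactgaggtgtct
Mir100hg, chr9:41474643-41474942, plus strand: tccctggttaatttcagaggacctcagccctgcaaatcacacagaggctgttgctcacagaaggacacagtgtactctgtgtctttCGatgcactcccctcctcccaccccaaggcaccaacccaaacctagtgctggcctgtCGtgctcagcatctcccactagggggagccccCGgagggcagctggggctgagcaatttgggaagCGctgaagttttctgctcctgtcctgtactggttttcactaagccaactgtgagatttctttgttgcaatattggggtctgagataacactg

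In these windows the capitals fall from 33 CG dinucleotides for 5730522E02Rik to 4 at the internal start of Mir100hg. The 5730522E02Rik window has 65.3% G and C and lay in a member of 1508 bp. In the member of 1058 bp shared by 2600014E21Rik and Gm13652, the windows hold 21 and 23 CG dinucleotides. Lncpint has 18, and Mir99ahg and Morrbid have 8 each. The windows shown are not a representative sample. The median over the 58 first start windows described next was 6, and a window with 1, that of Gm12022, is not shown. Across the 58 lncRNA genes whose first start window lay wholly inside a member, the median G and C content was 52.2% and 11 windows (19%, 95% Wilson interval 10.9% to 30.9%) were CpG-rich, meaning at least 50% G and C with an observed to expected CpG ratio of at least 0.6. Those of 5730522E02Rik, 2600014E21Rik, Gm13652 and Lncpint are among these 11. Of 307 windows of lncRNA genes equally far from coding genes that touched other far intervals and no member, 0.652% were CpG-rich, with a median G and C content of 47%. Of 1290 such windows that no interval touched, 1.55% were, and of 24 that lay only partly in a member 4.17% were (0.739% to 20.2%). Among the first start windows of all 9291 lncRNA genes with one, 12.8% were CpG-rich, and among 16456 of protein-coding genes 47.2% were. The interval for the windows wholly in members overlaps that of the windows partly in members. It lies above the shares of far starts that touched no member, contains that of all lncRNA genes and lies below that of coding genes. Lying wholly inside is a stricter rule than touching. Of the 43385 narrower far intervals, 22422 were under 300 bp and could not hold a whole window, so these classes are not matched.

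Short motifs were counted in the same windows. The E-box CANNTG, which reads the same on both strands and is the core bound by Myf6 and other basic helix-loop-helix factors, occurred in 72.4% of the 58 windows. It occurred in 85.7% of the 307 windows that touched other far intervals only, in 79.0% of the 1290 that no interval touched, in 80.2% of all 1679 first start windows of lncRNA genes beyond 100 kb and in 68.4% of protein-coding windows. For the 58 windows and these 4 classes in the same order, CAGCTG, which is one of the E-boxes and overlaps that count, occurred in 19%, 27.0%, 13.3%, 16.3% and 15.2%. TGANTCA, the palindromic AP-1 motif, occurred in 8.62%, 19.9%, 8.37%, 10.6% and 7.12%. TATAAA on either strand occurred in 3.45%, 15.3%, 22.2%, 20.2% and 13.5%. In the 58 windows TGANTCA occurred in 5 and TATAAA in 2, so these shares rest on few windows. Of the 24 windows only partly in a member, 91.7% held an E-box, 33.3% CAGCTG, 16.7% TGANTCA and 16.7% TATAAA. These are matches of letters and do not show binding.

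The single microRNA gene that a member overlapped was Mir539, and its mature 5p strand is shown with the seed (bases 2 to 8) in capitals.
mmu-miR-539-5p, chr12:109728136-109728157, plus strand: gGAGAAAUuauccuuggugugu
Mir539 lies in the imprinted Dlk1-Dio3 region, a cluster of microRNA genes expressed from the maternal chromosome. Its member was 1114 bp wide, at chr12:109727539-109728652, 124 kb from Rtl1. A second member, at chr12:109749212-109750266, lay over Mirg, a lncRNA of the same cluster. Within 10 kb of these 2 members lay 23 microRNA genes, the closest after Mir539 being Mir487b at 125 bp and Mir381 at 643 bp. In all, 14 of the 2009 members had at least 1 microRNA gene within 10 kb. The microRNA genes that close to a member numbered 35, including these 23. No such count is given for the narrower far intervals, so whether members differ from them was not tested. Beyond 100 kb from coding genes lay 101 microRNA genes. Mir100 was 851 bp, Mirlet7a-2 was 3205 bp, Mirlet7c-1 was 2483 bp and Mir99a was 3233 bp from a member. These 4 belong to the clusters hosted by Mir100hg and Mir99ahg.

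Width by itself was less common far from genes. Of intervals with a midpoint within 1 kb of an end of a protein-coding gene, where promoters lie, 36.6% were 1000 to 1999 bp wide. Over gene bodies the share was 6.46%, and at 10 to 100 kb from genes it was 6.33%. It was 5.37% at 100 to 200 kb, 4.25% at 200 to 500 kb, 2.72% at 500 kb to 1 Mb, and 1.52% beyond 1 Mb, where 24 of 1576 intervals were wide (95% Wilson interval 1.02% to 2.26%). Over everything beyond 100 kb it was 4.42%. These are shares of 1 pooled list, so the Wilson intervals here and below cover counting error only, and neighbouring intervals are not independent.

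**Figure D1:**
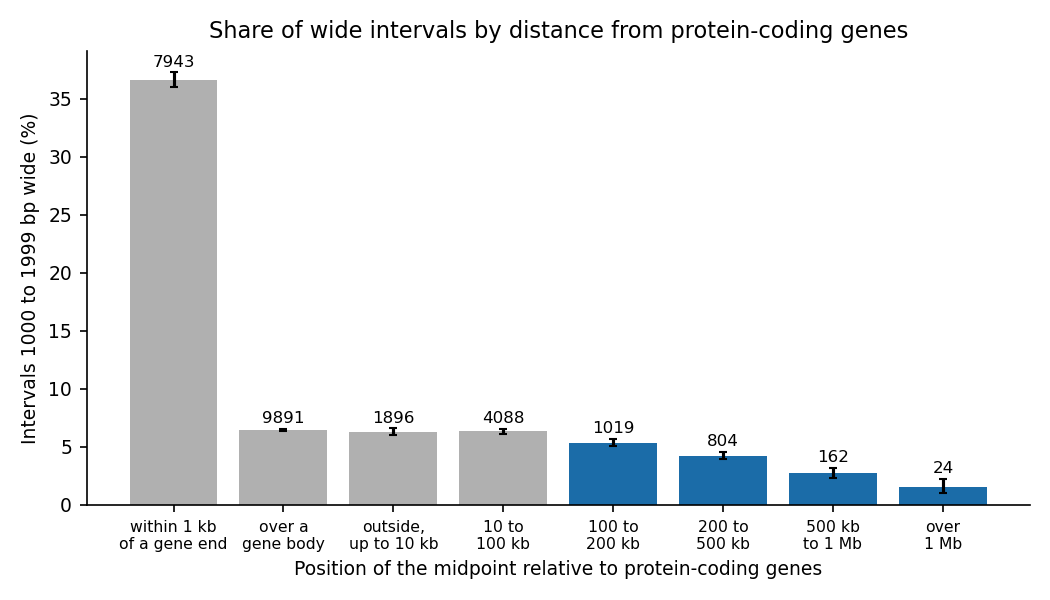
Share of intervals that were 1000 to 1999 bp wide (vertical axis, percent) by where the midpoint lies relative to protein-coding genes; bars are shares, error bars 95% Wilson intervals, and the number above each bar counts the wide intervals. The 4 blue bars are the members, and their share is lower in each class farther from genes, from 5.37% to 1.52%.

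The members' median width was 1170 bp, with 1109 at 1000 to 1199 bp, 658 at 1200 to 1499 bp and 242 at 1500 to 1999 bp. Their median distance from a protein-coding gene was 199 kb, and 1019 of them lay at 100 to 200 kb. Neither threshold sits at a gap in the data. There were 94 far intervals at 990 to 999 bp and 82 at 1000 to 1009 bp, and 171 wide intervals at 90 to 100 kb from genes against 159 at 100 to 110 kb. Just outside the rule lay an interval of 999 bp near Irs2, an insulin receptor substrate gene, and one of 1325 bp at 99.9 kb from Rybp. Just inside lay one of 1000 bp near Gria1 and one of 1099 bp at 100.2 kb from Nog, a BMP antagonist gene. The widest member, 1995 bp at chr3:37934909-37936903, lay over the lncRNA gene Gm20755, and the next, 1990 bp at chr3:21564107-21566096, lay 511 kb from Tbl1xr1. Among the 10 widest were also the member of 1980 bp near Sox4 at chr13:28757524-28759503, over 2610307P16Rik, and that of 1960 bp at chr9:41524545-41526504, over Mir100hg.

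Members often lay near each other. When members with midpoints up to 50 kb apart were joined, 980 (48.8%) fell into 362 groups of 2 or more, made of 233 pairs, 73 groups of 3 and larger groups up to 12, and 1029 stood alone. The 27 groups of at least 5 held 179 members. The median distance to the nearest other member was 53.3 kb (quartiles 21.0 and 175 kb), 198 members had another within 10 kb, and 166 had none within 1 Mb. The same count around the 43385 narrower far intervals, each asked whether a member lay within 50 kb, gave 40.6%. That share rose with width, from 38.5% of those under 300 bp over 40.7% at 300 to 499 bp to 44.9% at 500 to 999 bp. Members were closer to genes than the narrower intervals (median 199 against 235 kb), so the shares were also taken by distance. Within matched distances the shares with a member within 50 kb were 51.9% of members against 48.1% of narrower intervals at 100 to 200 kb, 48.6% against 41.4% at 200 to 500 kb, and 32.3% against 20.3% beyond 500 kb.

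Their surroundings were also richer in intervals of any width. Within 50 kb of a member lay a median of 15 other intervals (quartiles 10 and 21) and within 50 kb of a narrower far interval 12 (quartiles 7 and 18). No member was without another interval in that window, whereas 624 of the narrower ones were. At matched distances the medians were 17 against 15 at 100 to 200 kb, 14 against 12 at 200 to 500 kb and 10 against 7 beyond 500 kb. Wide intervals at 10 to 100 kb from genes had a median of 20. The gap from a member to its nearest interval had a median of 1996 bp, and 1793 bp for the narrower ones, so the higher counts were not seen at the closest spacing. No test was made of these differences, and whether sequencing depth or the joining of peaks between libraries has a part in them was not tested.

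**Figure D2:**
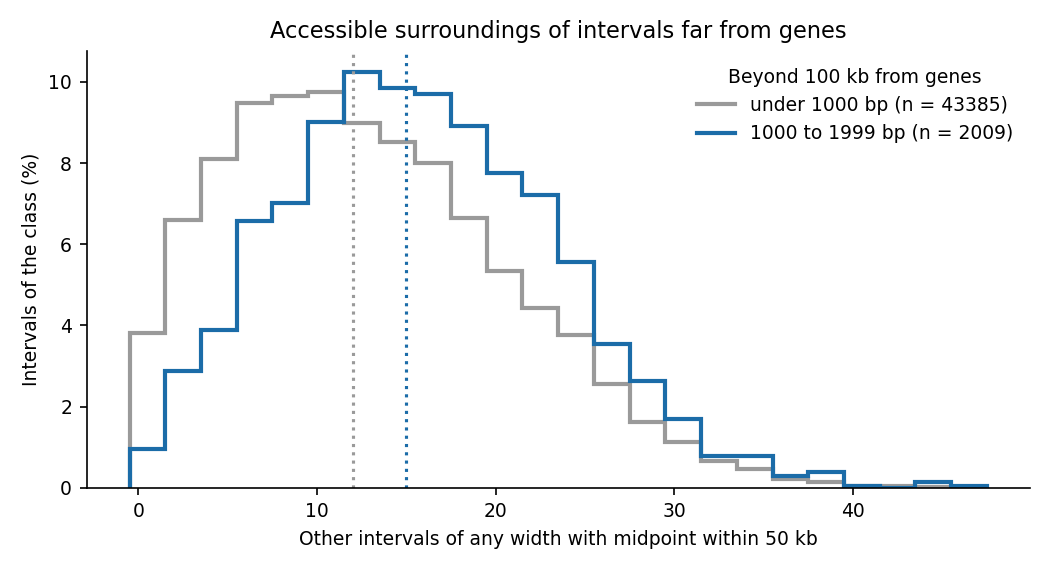
Number of other intervals of any width with a midpoint within 50 kb (horizontal axis) against the percent of intervals in each class (vertical axis, steps of 2 intervals), for the 2009 members (blue) and the 43385 narrower intervals beyond 100 kb from genes (grey). Dotted lines mark the medians of 15 and 12, and the distributions overlap over most of their range.

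The wider the member, the more often it was grouped. Among members of 1500 to 1999 bp 57.9% were in a group (95% Wilson interval 51.6% to 63.9%), against 50.3% at 1200 to 1499 bp (46.5% to 54.1%) and 45.9% at 1000 to 1199 bp (43.0% to 48.8%). The interval of the middle class overlaps both others. Median distances from genes were 179, 192 and 208 kb in the same order. Members over a noncoding gene were grouped in 54.5% of cases and the others in 46.8%.

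The largest groups lay in gaps between genes of different kinds. The 12 members at chr3:41194138-41430928 spanned 237 kb between Pgrmc2, a heme-binding membrane protein gene, and Jade1, which encodes a subunit of the HBO1 histone acetyltransferase complex, with 6 nearest to each. A further 12 at chr5:111631282-111892153 lay between Mn1, a transcriptional coactivator gene of craniofacial development, which was nearest to 10, and the lens crystallin gene Cryba4, nearest to 2. The 11 members at chr6:31075278-31220855 were the most tightly set of these 3 groups, in 146 kb, and lay at the lncRNA gene Lncpint between Klf14, nearest to 7, and Mkln1, nearest to 4. At its right end the start window of Lncpint lay in a member of 1095 bp and that of 2210408F21Rik, on the opposite strand, in the next one of 1000 bp.

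Of the other groups among the 10 largest, 9 members at chr7:135847759-136050039 were all nearest to Mki67, the gene of the proliferation marker Ki-67. The 9 at chr9:41524545-41736740 lay between Ubash3b, a phosphatase gene, and the predicted gene Gm40514. The 8 at chr13:52079292-52224115 lay between Gadd45g, a growth arrest and DNA damage gene nearest to 6, and Diras2, nearest to 2. The 8 at chr15:62091757-62329399 were all nearest to Myc, and that span held 82 intervals of any width, the most of the 10. Groups of 7 lay near Slc35b3 (chr13:39252301-39360650, 108 kb, 20 intervals of any width), near Tbc1d1 and Gm38457 (chr5:64478787-64611450) and near Zmiz1, a transcriptional coactivator gene (chr14:25108106-25355032).

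**Figure D3:**
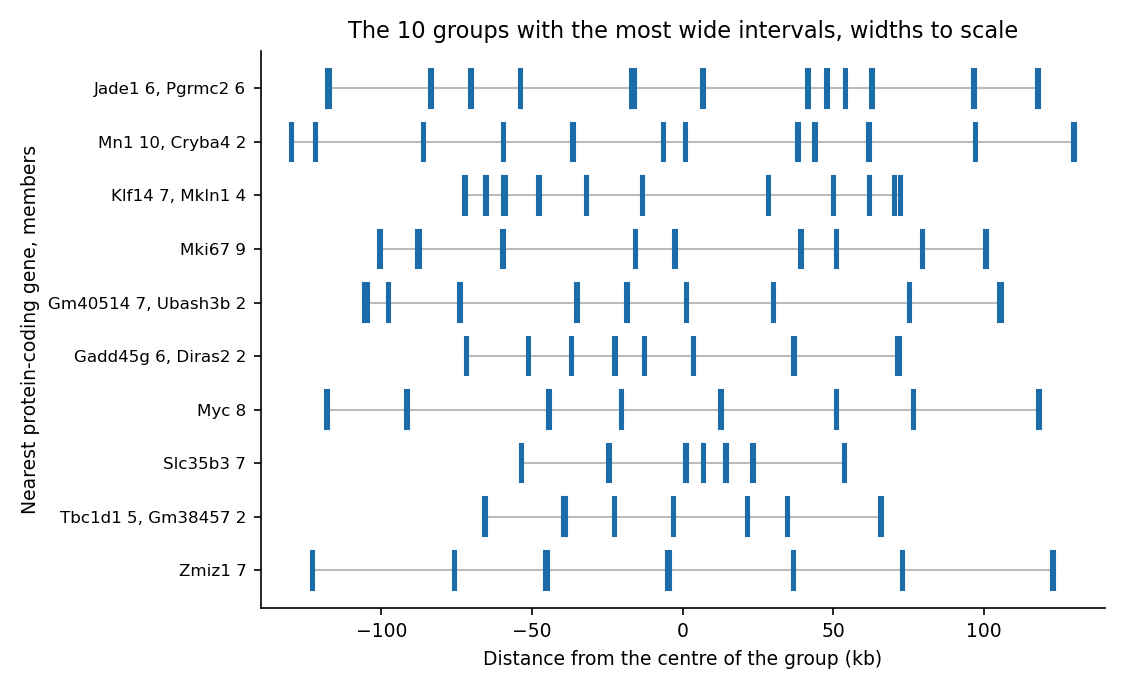
Members (blue boxes, width to scale) of the 10 groups with the most members, by distance from the centre of the group in kb; grey lines span each group and the labels name the nearest protein-coding genes with the members nearest to each. Spans run from 108 kb for the group near Slc35b3 to 261 kb for the one between Mn1 and Cryba4.

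Counted by gap between neighbouring genes, the sequence beyond 100 kb from coding genes made up 1376 stretches of 654.9 Mb, and 695 of them held the 2006 members that lay between 2 genes. That is 3.06 members per Mb. The 125 stretches with at least 5 members held 932 of them (46.5%) in 16.1% of that length. They were picked by their member count, so a high share is built in. Their share of all far intervals is not given here. The stretch names that follow were chosen after their values were seen. Most members lay between Myc and Gsdmc, 20 in 1586 kb. The densest among stretches of at least 500 kb lay between Ubash3b and Gm40514, 16 members in 544 kb or 29.4 per Mb, followed by Mn1 to Cryba4 with 25.4 per Mb and Thap1 to Zfp703 with 24.5 per Mb. Intervals of any width were dense there too, at 26.1, 23.9 and 18.4 per 100 kb in that order. Over all such sequence there were 6.93 per 100 kb. At the other end, 116 of 394 stretches of at least 500 kb (29.4%) held none. The longest of these were the 3775 kb between Slc39a10 and Tmeff2 on chromosome 1, with 73 intervals of any width, and the 3476 kb between Pcdh7 and G6pd2 on chromosome 5, with 82. By chromosome the density ran from 2.14 members per Mb on chromosome 17 to 5.43 on chromosome 13, with a median of 2.98. Chromosome 13 also had the most intervals of any width, 10.5 per 100 kb of such sequence, and 5.19% of them were members against 3.65% on chromosome 17.

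Of 2027 protein-coding genes that were nearest to any far interval, 941 (46.4%) were nearest to a member. For 469 of these it was 1 member, and 89 genes with at least 5 accounted for 572 members (28.5%). Nearness is given as position and does not name a target. Myc, the growth-promoting transcription factor, led with 16 members at 102 to 708 kb, of 225 far intervals nearest to it. Adgrl2, the adhesion receptor latrophilin 2, had 12 members at 184 to 825 kb. Mn1 and Zmiz1 had 11 each. Cited2, a modulator of CBP/p300, Efnb2, the ligand ephrin-B2, Med13l, a Mediator subunit, and Zeb2, a zinc finger repressor of E-cadherin, had 10 each.

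The farthest of these sets was that of Zeb2, at 162 to 1464 kb, and Cited2 had 3 members beyond 1 Mb at 1134, 1169 and 1215 kb. Those of Gadd45g (9 members, 105 to 307 kb), Zfp703 (9, 140 to 350 kb) and Mki67 (9, 132 to 333 kb) stayed nearer. As a share of the far intervals nearest to a gene, members made up 15.5% for Zfp703, a zinc finger gene, 14.9% for Med13l, 13.4% for Gadd45g, 13.0% for Mki67 and 12.6% for Mn1, beside 4.42% over all genes. For Adgrl2 the share was 5.22%, for Zeb2 6.13% and for Myc 7.11%, so their high counts went with many far intervals of any width. Tbl1xr1, a subunit gene of the NCoR corepressor, Ttll7, Usp24 and Zfp608 also had 9. Irx1 and Sox4, both developmental transcription factor genes, Mctp2, Slc4a3, Gm40514 and Ubash3b had 8.

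**Figure D4:**
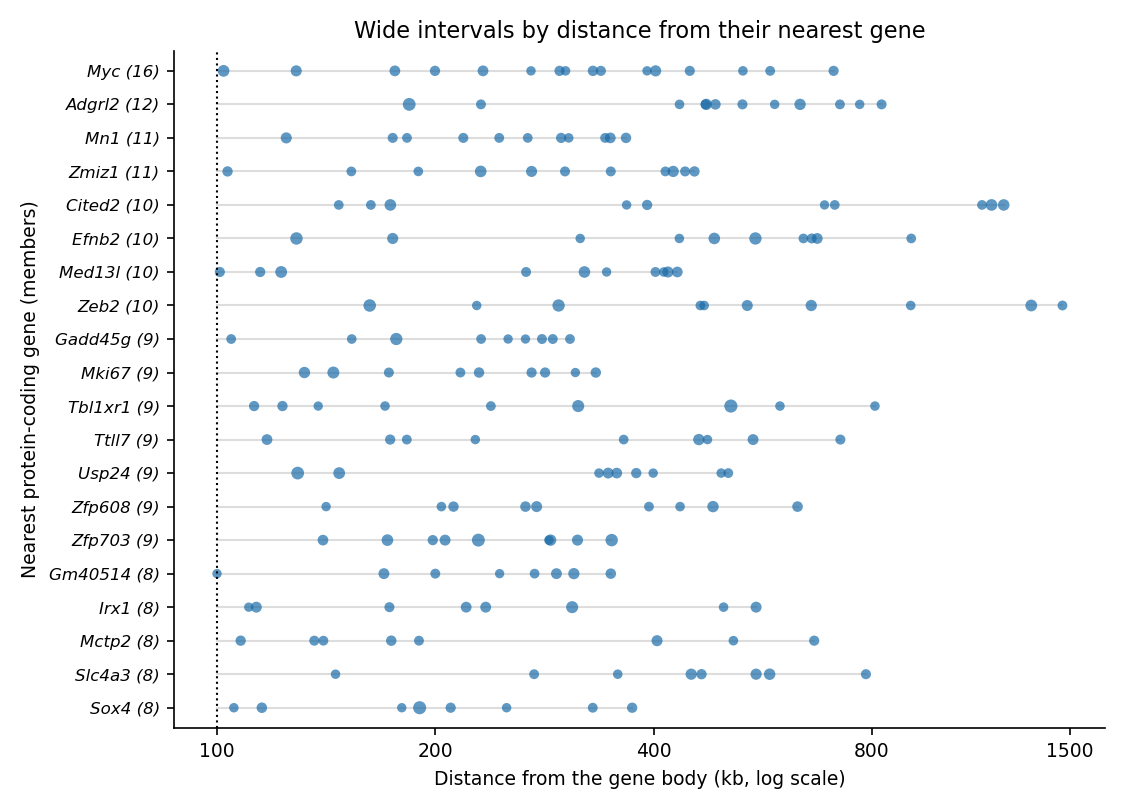
Distance of each member from its nearest gene (kb, log scale, dotted line at 100 kb) for the 20 protein-coding genes nearest to the most members (a tie at 8 members was broken by symbol, which leaves out Ubash3b), with the number of members after each gene; point area grows with width. Distances run from 100.1 kb for Gm40514 to 1464 kb for Zeb2.

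Where the strand of the nearest gene was known, 801 of 1494 members (53.6%, 95% Wilson interval 51.1% to 56.1%) lay on the side of its start and the rest on the side of its end. For the narrower far intervals it was 52.3% of 32629. All members nearest to Zmiz1, Cited2, Zeb2, Mki67, Tbl1xr1 and Usp24 lay on the start side, and all those of Efnb2, Gadd45g, Ttll7, Slc4a3, Sox4 and Gm40514 on the end side. The members of 1 gene often share a single gap, so their sides are not separate observations.

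Gene lists were read as the number of listed genes nearest to a member among those nearest to any far interval, beside the 941 of 2027 over all genes. For myogenic regulators it was 3 of 4, with Tcf4, an E-protein partner of the myogenic factors, at 5 members, and Eya1 and Myocd at 1 each. For muscle progenitor markers it was 4 of 7, with Hes1, a Notch target, at 2. No sarcomere or myocyte gene was nearest to any interval this far away. Among fibroblast and matrix genes it was 11 of 15, with Zeb2 at 10, Cdh11 at 4, and the matrix genes Fn1 and Thbs1 at 3 each. Members were 6.13%, 2.34%, 7.69% and 3.23% of the far intervals nearest to these 4 genes, in that order. Among limb and mesenchymal transcription factors it was 29 of 39, led by Irx1 and Sox4 at 8, Sox11 at 6 and Irx3 at 5. In all, 86 of the 1607 far intervals nearest to these factors were members (5.35%). All 4 pluripotency genes with far intervals had a member, Klf4 and Klf5 4 each, Sox2 3 and Tbx3 2. Members made up 4.71% of the 276 far intervals nearest to pluripotency genes, beside 4.42% over all genes. The share was 4.12% of 170 for myogenic regulators, 3.55% of 141 for progenitor markers and 4.86% of 659 for fibroblast and matrix genes.

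Lists that include the pathways of the added compounds (TGF-beta, Wnt and cAMP), and further lists, were counted in the same way. TGF-beta and BMP genes counted 8 of 10, with the ligand Bmp2 at 5, the receptor Tgfbr2 at 4, and the ligands Bmp4 and Inhba at 2. Wnt genes counted 6 of 12, with the receptors Fzd1 at 7 and Fzd8 at 6, and the nuclear effectors Lef1 and Tcf7l2 at 2. Of the cAMP genes it was 4 of 9, with the phosphodiesterase Pde3a and the coactivator Ppargc1a at 3, and of AP-1 genes 2 of 3, Jun and Maf at 2. Members made up 6.08% of 296 far intervals for TGF-beta and BMP genes and 6.88% of 276 for Wnt genes, beside 4.42% over all genes. For cAMP genes it was 5.97% of 134 and for AP-1 genes 4.88% of 82. Notch and growth factor genes counted 13 of 17, Efnb2 at 10 and the inhibitor Spry2 at 5. Of the 928 far intervals nearest to them, 36 were members (3.88%). Cell cycle genes and oncogenes counted 9 of 10, and 42 of the 491 far intervals nearest to them were members (8.55%), of which Myc and Mki67 had 16 and 9. Adhesion and guidance genes counted 19 of 38, with members making up 2.93% of 2113 far intervals. For neuronal genes it was 4 of 13, with 6 of 290 (2.07%). For endothelial and blood cell genes it was 2 of 3, with the endothelial cadherin Cdh5 at 5 and the leukocyte gene Ptprc at 3. Of the 174 far intervals nearest to genes of that list, 8 were members (4.598%), beside 4.42% over all genes. The 1 epithelial gene with far intervals had no member. These lists are small and unequal in how many genes border a desert, and no list was tested.

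A noncoding gene was overlapped by 523 members (26.0%, 95% Wilson interval 24.2% to 28.0%) and by 17.5% of the narrower far intervals, and 10.8% of the sequence beyond 100 kb lies in such genes. By width the shares were 16.5% under 300 bp, 17.1% at 300 to 499 bp and 19.9% at 500 to 999 bp. A wider interval reaches more sequence. By midpoint alone the shares were 24.1% of members and 17.1% of all narrower far intervals, without matching for distance. Whether width has a part in the difference was not tested. At matched distances, overlaps were 28.4% of members against 20.3% at 100 to 200 kb, 24.8% against 16.8% at 200 to 500 kb and 18.8% against 12.2% beyond 500 kb. An end of a noncoding gene lay within 1 kb of 176 members (8.76%) and of 3.67% of narrower intervals, or 6.97% and 3.19% by midpoint. Pseudogenes were overlapped by 18 members (0.896%, 95% Wilson interval 0.568% to 1.41%) and by 0.634% of the narrower far intervals. Of the far sequence, 0.939% lies in pseudogenes.

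Starts of lncRNA genes, too, lay more often in members than in narrower intervals. A start position lay inside 75 members (3.73%), 1.43% of the far intervals of 500 to 999 bp, 0.529% of those of 300 to 499 bp and 0.214% of those under 300 bp. Per length, members held 90 start positions in 2.48 Mb, or 36.3 per Mb, narrower far intervals 17.9 per Mb, and the far sequence as a whole 3.07 per Mb. Among the narrower ones, those of 500 to 999 bp held 22.9 per Mb. Among members, a start lay in 6.61% of those of 1500 to 1999 bp (4.11% to 10.5%) and in 2.80% of those of 1000 to 1199 bp (1.98% to 3.94%). In 4 members whole start windows of genes on both strands were found, those of Gm13847 and Gm13848 near Podxl, Gm35940 and LOC115486408 near Gm40514, 2600014E21Rik and Gm13652 near Mtx2, and Gm29418 and Gm4718 near Six2, a homeobox gene.

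**Figure D5:**
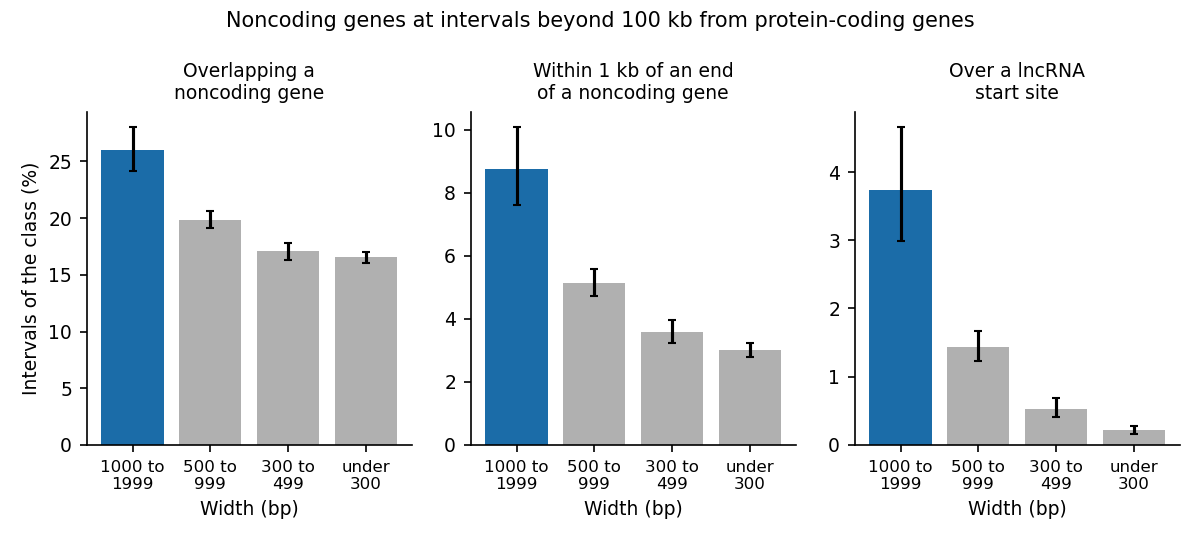
Percent of intervals beyond 100 kb from protein-coding genes that overlap a noncoding gene (left), lie within 1 kb of an end of one (middle) or contain a lncRNA start position (right), by interval width in bp, with 95% Wilson intervals as error bars; each panel has its own vertical scale from 0. The members (blue) are highest in each panel, at 26.0%, 8.76% and 3.73%.

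The members overlapped 423 noncoding genes, 419 of them lncRNA genes, and 405 carry predicted or clone-based symbols. They were 24.8% of the 1706 noncoding genes that any far interval overlapped, and 341 were overlapped by 1 member each. Mir100hg had 10 members over its 239 kb, of 68 intervals of any width, and the closest pair of these lay at chr9:41524545-41526504 and chr9:41532355-41533511. The 425 kb of 2610307P16Rik, which starts 63.5 kb from Sox4, had 9 members and 119 intervals. Morrbid and Lncpint had 7 members each, which covered 7.60% and 6.46% of these genes. Gm31814 near Lpp had 6 members in 77.1 kb and A930011G23Rik near Rasgef1b 6 in 432 kb. Gm20755 and Pvt1 had 5 each. The members over Pvt1, the lncRNA gene beside Myc, lay in the part of it beyond 100 kb from Myc, and 77 intervals of any width lay over the whole gene.

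Gm31813 near Tbl1xr1 had 4 members. Gm31727, Gm32098, Gm30366, Gm34184, Gm35835, Gm29687, Zmiz1os1, Gm32543, D030068K23Rik, Gm45968 and Mir99ahg were among 13 genes with 3 each, and in the short Gm31727 they covered 16.6% of the gene. The 3 members of Gm32543 were those nearest to Cited2 at 147, 163 and 174 kb. The list of known noncoding genes had 66 on chromosomes 1 to 19, of which far intervals overlapped 7 and members 5, namely Pvt1, Mirg, Mir100hg, Mir99ahg and Lncenc1, an embryonic stem cell lncRNA. Rmst and Mir137 were overlapped by narrower intervals only, with a member 347 bp from Mir137.

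The farthest member from any protein-coding gene lay on chromosome 18, 2188 kb from Pik3c3, over the lncRNA gene Gm33860, and was 1295 bp wide. The next, also on chromosome 18, were at 1700 and 1667 kb from Celf4, an RNA-binding protein gene, followed by one on chromosome 1 at 1645 kb from Cntnap5a. Of the 10 farthest, 6 were on chromosome 18, and the others lay near Cntnap5a and Dsel on chromosome 1, Pcdh7 on chromosome 5 and Zeb2 on chromosome 2. They were 1009 to 1295 bp wide, at the lower end of the members' range.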

How the data were processed

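Chromosome, start and end of each interval, values of another kind than levels, were used as deposited. Per the file headers, HOMER's annotatePeaks was applied by the authors to a consensus peak set, using GENCODE vM23 and GRCm38.p6. The submitters' processing notes name BWA, MACS2 and DESeq2, with no version or role. Thresholds, pooling and joining of peaks are not given in the sources used here, so a wide interval can be several joined peaks, and depth is unknown. Peak scores, all at 0, and empty annotation columns were not used.

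Genes came from the RefSeq table of GRCm38.p6, with 20556 protein-coding and 16250 noncoding genes on chromosomes 1 to 19. Another 328 genes that end before 3 Mb carry positions on unplaced scaffolds and were left out. Start windows were matched by gene ID for 9291 of 12324 lncRNA genes. Overlap means at least 1 bp. The 16 gene lists had 397 symbols, of which 392 matched. Members and lists were chosen with earlier results of these data known. Named were the 10 groups with most members, 20 coding and 20 noncoding genes with most members, listed noncoding and microRNA genes overlapped, the widest and farthest members, those beside each threshold and up to 4 genes per list. Not every member beside a threshold is reported here. The code for distances, overlaps and groups was checked on simulated positions, which tests the code and not the data. Software was scipy 1.17.1, numpy 2.4.6, matplotlib 3.10.9 and pandas 2.3.3 under Python 3.11.15.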

Additional observations from a re-analysis of the deposited data

How the results depend on the processing

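Of 51 alternatives, 30 stayed within 1.5 times a count or within the 95% Wilson interval of a share, and 21 did not. The number of members, 2009, was 3220 beyond 50 kb, 990 beyond 200 kb and 900 at a minimum of 1200 bp. The nearest genes, 941, were then 1502, 508 and 567, and the median of 2.98 members per Mb over chromosomes was 1.33 at 1200 bp. The grouped share, 48.8%, was 52.5% beyond 50 kb, 42.4% beyond 200 kb, 61.2% at a minimum of 900 bp, 33.2% at 1200 bp, 30.2% when members up to 25 kb apart were joined and 65.4% at 100 kb. The share over a noncoding gene, 26.0%, was 23.6% beyond 200 kb, 29% at 1200 bp and 24.1% by midpoint. The share at an end, 8.76%, was 10.2% at 1200 bp, 7.27% within 500 bp and 12.0% within 2 kb. The median of 15 neighbours was 8 within 25 kb and 30 within 100 kb. Some of these settings change the rule, which then admits fewer or more intervals, and others change only how members are measured. Why the shares moved was not tested. Measuring from the interval's edge, dropping the upper width or dropping predicted genes kept the results above within those bounds, apart from the neighbours, for which these settings were not run. No paired analysis was possible because the table names no library, and leaving out a library or stating a depth was likewise not analysed here. The planned motif count over whole members was not run, since only start windows were at hand.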
